A study of Homo sapiens with 3 samples.

Results

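Endothelial cells, the cells that line blood vessels and the inner surface of the heart chambers, were followed through 3 ages of chambered cardiac organoids (CCOs). They were chosen as kept cells in which the unique molecular identifiers (UMIs, the counted mRNA molecules) of CDH5, TIE1, ECSCR and ESAM summed to 4 or more. CDH5 is the cadherin of endothelial junctions, TIE1 a receptor tyrosine kinase, ECSCR a surface protein that regulates endothelial migration, and ESAM an adhesion molecule of tight junctions. A cell was kept when more than 2000 and fewer than 7500 genes were detected and mitochondrial genes gave under 10% of its UMIs. This left 46 endothelial cells among 2657 kept cells at day 8 (D8), 51 among 3585 at D14 and 43 among 1946 at D21, which is 140 of 8188 in all.

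The CCOs were made from the human embryonic stem cell line H7, driven towards cardiomyocytes (CMs) in flat culture with the GSK inhibitor CHIR99021 and then the Wnt inhibitor IWP-2, aggregated in Matrigel 1 day before D8 and kept until D14 in cardiosphere growing medium (CGM), which holds added thrombin, cardiotrophin-1, EGF, FGF-2, Wnt-3A and endothelin-1. After D14 they were moved to RPMI medium with B27 in a stirred flask, so the D21 library differs from the others in age and in culture. Beyond this no group carried an agent or allele of its own, and the number of CCOs dissociated for a library was not stated in the text that was read. TrypLE-dissociated cells gave 1 droplet library per day, so library, age, medium and flask cannot be told apart. Differences between days therefore carry no test, and intervals cover counting error only.

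Endothelial cells sense VEGF through the receptors KDR and FLT1, and ETS and SOX family transcription factors keep their genes active. Arterial cells carry Notch ligands and the connexins GJA4 and GJA5, venous cells the receptors EPHB4 and APLNR, tip cells of a sprouting vessel ESM1, and the endocardium NFATC1 and NPR3. In the embryonic heart, endothelial cells signal to CMs by secreted factors, among them endothelin-1 and neuregulin-1.

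ETS factors bind DNA around a GGAA core, and AGGAAG, searched on both strands, is a short form of it. RefSeq promoters of 300 bases, from 250 before to 50 after the start, were at hand for TIE1 and ECSCR among the selection genes, in the build GRCh38.p14. They are shown with PLVAP, a protein of endothelial fenestrae that set the cells apart at each age, and ESM1, which was high at D21, so that selection genes, a marker of every age and a late gene can be read side by side. The sequences run 5′ to 3′ on the strand of the gene, and capitals mark AGGAAG or its reverse complement CTTCCT. TIE1 lies at chr1:43300732-43301031 on the plus strand, and ECSCR at chr5:139462694-139462993, PLVAP at chr19:17377293-17377592 and ESM1 at chr5:54985544-54985843 on the minus strand.
TIE1: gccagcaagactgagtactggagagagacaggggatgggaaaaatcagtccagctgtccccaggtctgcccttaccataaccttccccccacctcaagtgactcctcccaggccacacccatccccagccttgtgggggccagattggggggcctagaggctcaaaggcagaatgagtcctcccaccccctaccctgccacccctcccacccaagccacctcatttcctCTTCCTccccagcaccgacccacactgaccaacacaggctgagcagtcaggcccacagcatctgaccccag
ECSCR: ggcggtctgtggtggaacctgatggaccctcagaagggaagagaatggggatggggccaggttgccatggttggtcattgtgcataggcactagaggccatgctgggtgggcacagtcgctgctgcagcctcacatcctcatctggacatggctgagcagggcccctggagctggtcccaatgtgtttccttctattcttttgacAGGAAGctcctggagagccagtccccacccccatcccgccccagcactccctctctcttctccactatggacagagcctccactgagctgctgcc
PLVAP: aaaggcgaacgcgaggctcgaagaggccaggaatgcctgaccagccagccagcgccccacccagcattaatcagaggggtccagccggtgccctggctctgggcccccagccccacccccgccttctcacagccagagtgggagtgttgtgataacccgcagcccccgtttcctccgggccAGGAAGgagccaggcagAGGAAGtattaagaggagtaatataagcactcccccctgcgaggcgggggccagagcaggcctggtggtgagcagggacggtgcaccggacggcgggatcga
ESM1: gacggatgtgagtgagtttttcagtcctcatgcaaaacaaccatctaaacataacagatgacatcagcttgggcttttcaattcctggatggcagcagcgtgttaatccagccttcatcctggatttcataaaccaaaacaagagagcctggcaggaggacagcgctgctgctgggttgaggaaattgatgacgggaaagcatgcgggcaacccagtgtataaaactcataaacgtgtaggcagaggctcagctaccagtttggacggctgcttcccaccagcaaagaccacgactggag
The windows of TIE1 and ECSCR hold 1 match each, that of PLVAP holds 2, and that of ESM1 holds 0. Windows read but not printed hold 1 match for EMCN, 2 for FLT1, 0 for TFPI2 and 1 for CRHBP. TFPI2 and CRHBP were also high at D21. Of the 25 genes of an endothelial identity list (receptors, junction proteins and surface markers without the 4 selection genes), 16 had a promoter entry and 10 of these held the motif in at least 1 promoter. By promoter this was 12 of 19 (63.2%), beside 11816 of all 35116 promoters (33.6%). The motif was chosen after sequences had been read, and a match is a description of letters, not a bound site.

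Depth was alike in endothelial and other kept cells. The endothelial cells had medians of 14681.5, 11886 and 15261 UMIs on D8, D14 and D21, and the other kept cells 15318, 12282 and 14090 UMIs. The UMIs of the endothelial cells of a day were summed, giving 806924, 692001 and 701525 UMIs, and a gene's level is its share of that sum in counts per 1000000 (CPM) with an exact Poisson 95% interval. Ratios between days or groups are log2 ratios with 10 CPM added to both levels, for genes that reach 30 CPM on 1 side or both, and a ratio of 1 or more, which is 2-fold, is called higher. Cell barcodes shared between libraries numbered 25 for D8 and D14, 52 for D8 and D21, and 59 for D14 and D21, and 1 of them was an endothelial cell at both D8 and D14. Doublets were not removed. Doublet-like cells had a CM, fibroblast or epithelial list share at or above the 90th percentile of the other kept cells of that day. By this rule 3, 3 and 0 endothelial cells on D8, D14 and D21 were doublet-like. The CM limit was 12337, 47139 and 111119 CPM on the 3 days, so the rule was not equally strict on each.

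The selection separated a small group from a large one without these mRNAs. No UMI of the 4 genes was seen in 2509 (96.1%), 3421 (96.8%) and 1837 (96.5%) of the other cells on D8, D14 and D21. Among the endothelial cells the sum ran from 4 to 60 UMIs at D8 (median 13.5), from 4 to 26 at D14 (median 10) and from 6 to 93 at D21 (median 11), and all 4 genes were detected in 32, 23 and 29 of them. Just outside the limit, with 3 UMIs, lay 1, 7 and 1 cells on D8, D14 and D21, and just inside it, with 4 UMIs, lay 2, 4 and 0 cells. D14 therefore had more cells near the limit than the other days.

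**Figure D1:**
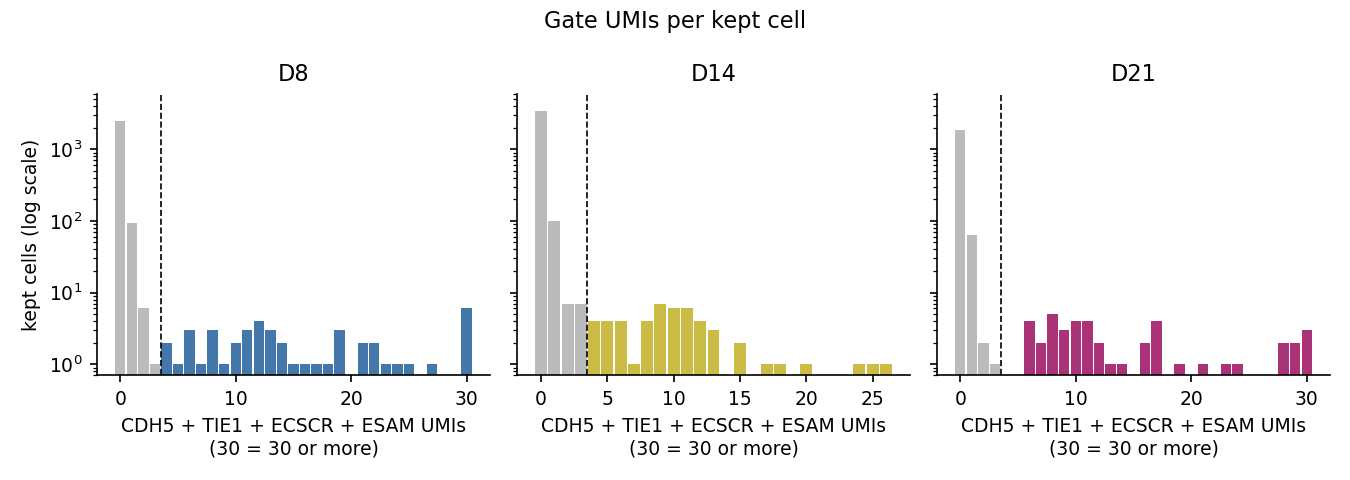
Kept cells by their summed UMIs of CDH5, TIE1, ECSCR and ESAM (horizontal axis, cells with 30 or more in the last bar) on a log count axis, in 1 panel per day, with the chosen cells in colour to the right of the dashed line. Most cells sit at 0 UMIs, and 7 cells of D14 sit at 3 UMIs, just left of the line.

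Endothelial identity beyond the 4 selection genes was checked on the identity list. Summed over its 25 genes, the median endothelial cell had 6893, 4950.5 and 8009 CPM on D8, D14 and D21, against 209, 302 and 305 CPM in cells with 0 selection UMIs. At D14 the 7 cells with 3 UMIs had a median of 4007 CPM (range 51.5 to 6680) and the 4 cells with 4 UMIs a median of 3304 CPM (range 333 to 8147), so identity genes were present on both sides of the limit. The chosen cells were not uniform. At or below the 99th percentile of the cells with 0 selection UMIs lay 1 of the 46 chosen cells at D8, 8 of the 51 at D14 and 3 of the 43 at D21. That percentile was 1312, 2579 and 2874 CPM on the 3 days, so these counts are not alike in strictness. No UMI of CDH5 or TIE1 was seen in 2, 7 and 5 chosen cells, which entered through ESAM and ECSCR.

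Of all genes compared with the other kept cells of the same day, 13.3%, 7.64% and 8.88% were 2-fold or more higher in the endothelial cells on D8, D14 and D21. For the identity list this was 20 of 21 genes at D8, 16 of 16 at D14 and 19 of 19 at D21, with median log2 ratios of 3.42, 3.44 and 3.24 beside 0.02, -0.08 and 0.14 over all genes compared. The exception at D8 was TMEM88, a membrane protein of the Wnt pathway, at 74.4 CPM in the endothelial cells and 129 CPM in the others. Of the 25 genes of the list, 4, 9 and 6 were under 30 CPM on both sides on D8, D14 and D21. A gene that reached this limit only in the endothelial cells had to be higher there, so these counts are a description. VWF, the von Willebrand factor of mature endothelium, was at 24.8, 10.1 and 0 CPM on D8, D14 and D21.

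Of kept cells, 1.73% (exact 95% interval 1.27 to 2.30) were endothelial on D8, 1.42% (1.06 to 1.87) on D14 and 2.21% (1.60 to 2.96) on D21. These intervals overlap between all pairs of days. The value at D21 depended on the mitochondrial limit, with 3.24% at a limit of 5%, where 29 of 895 cells were endothelial, and 1.28% at a limit of 20%, where 46 of 3602 were. At the limit of 20%, D8 stood at 1.72% and D14 at 1.35%, so D21 was then lowest. Fewer cells of a type and poorer recovery of that type in dissociation cannot be told apart from these shares.

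Within the endothelial cells, 166 of 4804 genes (3.46%) were 2-fold or more higher at D14 than at D8 and 130 (2.71%) were lower. Between D14 and D21, 399 of 4883 genes (8.17%) were higher at D21 and 395 (8.09%) were lower. Both comparisons use the D14 library. Over all genes compared the median log2 ratio was -0.07 for D14 over D8 and 0.07 for D21 over D14, which are the levels against which the lists below are read. With cells thinned to 4000 UMIs before selection, the split between D14 and D8 was 146 higher and 187 lower.

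Most endothelial identity genes stayed within 2-fold between successive days, but so did most genes of any kind. Over all genes compared, 3.46% were higher and 2.71% lower at D14 than at D8. For D21 over D14 these shares were 8.17% and 8.09%, so the identity list was not steadier than genes in general. Of 21 identity genes, 2 were higher at D14 than at D8 (EMCN and ENG) and 3 were lower (CLDN5, GPR116 and TMEM88), with a median log2 ratio of -0.59. Of 20 compared between D14 and D21, 6 were higher at D21 (KDR, CLDN5, ROBO4, GNG11, CD93 and TMEM88) and 1, TEK, was lower, with a median of 0.39. ELTD1, an adhesion receptor of endothelium, was at 183, 182 and 177 CPM on the 3 days. The calls of CLDN5 and TMEM88 between D8 and D14, and of KDR, GNG11, CD93 and TEK between D14 and D21, ended under at least 1 alternative.

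KDR, the main VEGF receptor, was at 425 CPM (95% interval 381 to 473), 214 CPM (181 to 251) and 445 CPM (397 to 497) on D8, D14 and D21. The D14 level was the lowest, and the D8 and D21 intervals overlap. The log2 ratio of D21 over D14 was 1.02, just past 2-fold, and lay between 0.80 and 0.98 under 7 of the alternatives. FLT1, the receptor that also acts as a decoy for VEGF, was at 286, 282 and 157 CPM, with the D21 interval below the others. TEK, the angiopoietin receptor, was at 94.2 CPM (95% interval 74.2 to 118), 49.1 CPM (34 to 68.7) and 18.5 CPM (9.87 to 31.7) on D8, D14 and D21, an order from D8 down to D21 in which no intervals overlap.

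PLVAP was at 575 CPM (95% interval 524 to 629.8), 355 CPM (312 to 403) and 178 CPM (148 to 212) on D8, D14 and D21, while the other kept cells had 0.87, 4.68 and 1.03 CPM. The endothelial level went down in order of age, with a log2 ratio of -0.68 for D14 over D8 and -0.96 for D21 over D14, neither past 2-fold. CD34, a sialomucin of young endothelium and blood progenitors, was at 260.2 CPM (95% interval 226 to 298), 142 CPM (115 to 173) and 78.4 CPM (59.1 to 102) on D8, D14 and D21. It too was highest at D8 and lowest at D21, without overlap of intervals.

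EMCN, a sialomucin of capillary and venous endothelium, was at 211 CPM (95% interval 180.2 to 245), 481 CPM (431 to 536) and 479 CPM (429 to 533) on D8, D14 and D21. ENG, the endothelial TGF-beta co-receptor, was at 89.2, 318 and 405 CPM. For both genes D8 was low, and the D14 and D21 intervals overlap. GNG11, a G protein subunit abundant in endothelium, was at 1575, 978 and 2121 CPM, and its D21 over D14 log2 ratio of 1.11 was 0.87 when cells were selected after thinning.

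CLDN5, the claudin that seals endothelial tight junctions, showed the widest range among the identity genes between D14 and D21. Its level was 75.6 CPM (95% interval 57.8 to 97.1), 31.8 CPM (19.9 to 48.1) and 510.3 CPM (459 to 566) on D8, D14 and D21, and it had a UMI in 14 of 46, 7 of 51 and 29 of 43 cells. With each cell thinned to 4000 UMIs, 9, 3 and 23 cells had one, against 0.394%, 0.144% and 0% of CM-high cells without selection UMIs, a cell type that should lack it. These CM-high cells, the 20% of other cells richest in CM genes, had median depths of 14440.5, 12880 and 13520 UMIs. The log2 ratio of D21 over D14 was 3.64, and 3.24 without the endothelial cell with most selection UMIs.

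**Figure D2:**
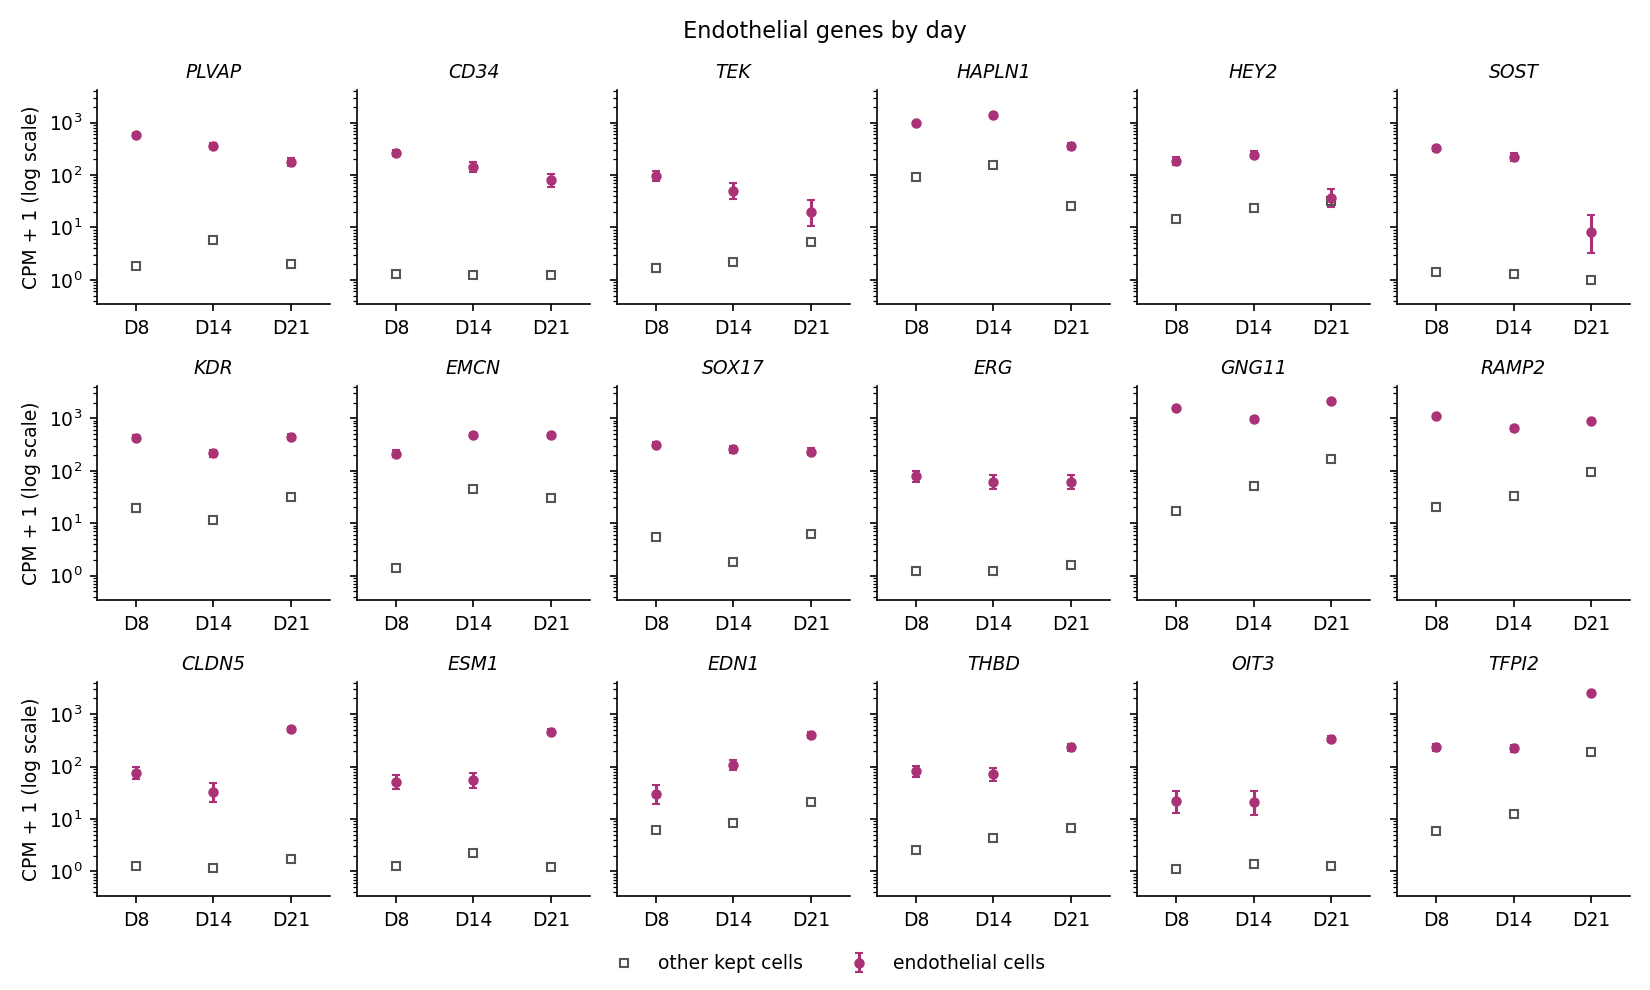
Level of 18 genes (CPM plus 1, log axis) in endothelial cells (filled circles, with Poisson 95% intervals) and in the other kept cells (open squares) at D8, D14 and D21, each from 1 library. The upper genes are lower at D21 than at D8, the middle genes stay within a narrower band, and the lower genes, from CLDN5 to TFPI2, are highest at D21.

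Few endothelial transcription factors passed 2-fold between successive days. Of 16 compared, 1 was higher at D14 (SOX18) and 1 lower (SOX7), with a median log2 ratio of -0.33, and of 15 compared between D14 and D21, 0 were higher and 2 were lower (LMO2 and GATA2), with a median of -0.27. Few genes of any kind did so, with 3.46% of all genes higher and 2.71% lower at D14 over D8. At D21 over D14 the shares of all genes were 8.17% and 8.09%. Between D8 and D21, a comparison in which 10% of 4990 genes were higher and 11.3% lower, 1 of 16 was higher and 6 were lower (FLI1, ETS1, TAL1, LMO2, GATA2 and MEF2C), and the median was -0.67 beside -0.02 over all genes. As means of cell levels, the ratios of SOX7 (-0.71) and of LMO2 between D14 and D21 (-0.86) did not pass 2-fold.

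ERG, the ETS factor that marks nearly all endothelium, was at 78.1 CPM (95% interval 60 to 99.9), 60.7 CPM (43.7 to 82) and 61.3 CPM (44.4 to 82.6) on D8, D14 and D21, and all 3 intervals overlap. SOX17 was at 316, 256 and 229.5 CPM. SOX18, a factor of vessel and lymphatic development, was at 24.8 CPM (95% interval 15.1 to 38.3), 137 CPM (111 to 168) and 147 CPM (119.8 to 178) on D8, D14 and D21, with a log2 ratio of D14 over D8 of 2.08. Its close relative SOX7 was at 178, 80.9 and 141 CPM, with the lowest level at D14 and a D14 over D8 log2 ratio of -1.05. SOX18 was thus low at D8 only, while the D8 and D21 intervals of SOX7 overlap.

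LMO2, a transcription cofactor of endothelium and early blood formation, was at 269 CPM (95% interval 234 to 307), 251 CPM (215 to 292) and 113 CPM (89.2 to 140.3) on D8, D14 and D21, and GATA2 at 100.4, 75.1 and 24.2 CPM. TAL1 was at 34.7, 13 and 9.98 CPM. HHEX, a homeobox factor of endothelium and of liver endoderm, was at 227, 178 and 115 CPM. Each of the 4 had its lowest level at D21, while LYL1 was at 78.1, 130.1 and 79.8 CPM. The D8 and D14 intervals of LMO2 overlap. PTPRC, GATA1, KLF1 and the globins HBE1, HBZ, HBG1 and HBG2 had 0 UMIs in endothelial cells on each day, the 16 genes of the blood list summed to 54.5, 43.4 and 68.4 CPM, and CD14 was its only gene at 30 CPM or more, at 33.5, 31.8 and 61.3 CPM, with 72.1% of the D21 UMIs in 1 cell.

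Arterial genes were split. Of 12 arterial genes, 1 was higher at D14 than at D8 (IGFBP3) and 1 lower (GJA4), with a median log2 ratio of -0.30, and of 11 compared between D14 and D21, 4 were higher at D21 (GJA4, GJA5, CXCR4 and IGFBP3) and 1 was lower (HEY2), with a median of 0.20. GJA4, an arterial connexin, was at 266 CPM (95% interval 232 to 305), 124 CPM (99.4 to 153) and 391 CPM (346 to 439.7) on D8, D14 and D21. At D21 a single cell held 43.8% of its UMIs, and without that cell the D21 over D14 log2 ratio was 0.92 in place of 1.58. CXCR4, the chemokine receptor of arterial and tip cells, was at 40.9, 82.4 and 192 CPM, with 74.8% of the D21 UMIs in that cell and a ratio of -0.64 without it in place of 1.13. GJA5 was at 0.18 on the log2 scale without it, and the D14 over D8 ratio of GJA4 was -0.96 when cells were selected after thinning.

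HEY2, a Notch target of arterial cells and of ventricular CMs, went the other way. It was at 185 CPM (95% interval 156 to 217), 241 CPM (206 to 281) and 35.6 CPM (23.1 to 52.6) on D8, D14 and D21, and the D21 interval lies below both others. Its log2 ratio of D21 over D14 was -2.46 in endothelial cells and 0.36 in the other kept cells. NOTCH4, the endothelial Notch receptor, was at 79.3, 75.1 and 55.6 CPM with overlapping intervals, and its ligand DLL4 was at 37.2, 21.7 and 28.5 CPM. The arterial list thus did not move as 1 block.

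Venous genes were fewer. Of 3 compared, 0 were higher at D14 than at D8 and 1 (EPHB4) was lower, with a median log2 ratio of -0.94, and of 4 compared between D14 and D21, 1 (APLNR) was higher and 0 were lower, with a median of 0.30. APLNR, the apelin receptor of veins and sprouts, was at 105 CPM (95% interval 84.1 to 130.3), 53.5 CPM (37.6 to 73.7) and 296 CPM (258 to 339.6) on D8, D14 and D21. D21 stood highest, with a log2 ratio over D14 of 2.27, and the ratio in the other kept cells was 1.03. With each cell thinned to 4000 UMIs, a UMI of NR2F2, EPHB4 or APLNR was seen in 43.5%, 37.3% and 83.7% of endothelial cells, against 14.6%, 8.23% and 4.5% of CM-high cells and 14%, 14.8% and 22.9% of all other kept cells. At full depth the endothelial shares were 76.1%, 52.9% and 95.3%. A UMI of GJA4, GJA5 or DLL4 was seen in 60.9%, 39.2% and 51.2% after thinning and 82.6%, 64.7% and 62.8% at full depth, against 0.394%, 0.433% and 0.529% of thinned CM-high cells. More endothelial cells thus held a UMI of NR2F2, EPHB4 or APLNR at D21, where the share of other kept cells was also highest. By day, APLNR was seen after thinning in 4, 3 and 10 cells with GJA4 and 6, 8 and 20 without it. NR2F2 was seen after thinning in 1, 3 and 1 cells with GJA4 and 2, 0 and 1 without it. At full depth NR2F2 was seen in 4, 7 and 9 and in 2, 4 and 3. The rise after thinning was thus seen in APLNR, while thinned cells with NR2F2 were too few to show a change. Between D8 and D21, 2 of the 4 genes compared on the venous and lymphatic list were higher (NR2F2 and APLNR) and 0 lower. Over all genes in that comparison 10% were higher. Arterial mRNA had its lowest thinned share at D14.

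Endocardial genes were lower late. Of 9 compared, 1 (NPR3) was higher at D14 than at D8 and 0 were lower, with a median log2 ratio of 0.25. Of 7 compared between D14 and D21, 0 were higher and 4 were lower (GPR126, HAPLN1, TMEM100 and GATA5), with a median of -1.17. HAPLN1, a link protein of the cardiac jelly, was at 975 CPM (95% interval 908 to 1046), 1390.2 CPM (1304 to 1481) and 361 CPM (318 to 408) on D8, D14 and D21. Its log2 ratio of D21 over D14 was -1.92, and -2.22 in the other kept cells. TMEM100, a BMP9 target of endothelium, was at 159, 140.2 and 2.85 CPM, with ratios of -3.55 and -2.07. Both genes were thus lower at D21 outside the endothelial cells too.

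NFATC1, the transcription factor of endocardial valve cells, was at 38.4, 28.9 and 18.5 CPM, and NPR3, a natriuretic peptide receptor of endocardium, was at 23.5, 66.5 and 32.8 CPM. A UMI of either was seen in 23.9%, 29.4% and 9.3% of thinned cells and 56.5%, 60.8% and 30.2% at full depth, against 3.35%, 2.45% and 1.32% of thinned CM-high cells and 3.45%, 13% and 8.09% of all thinned other kept cells. D21 had the lowest of the 3 endothelial shares, with an exact 95% interval of 2.59 to 22.1% that holds the share of the other cells of that day. The capillary list had 1 gene higher (PRND) and 1 lower (LPL) of 5 at D14 over D8 (median log2 ratio 0.51) and 2 higher (CAV1 and PRND) of 4 at D21 over D14 (median 0.97). PRND at D14 came from 1 cell, and CAV1 had a D21 over D14 ratio of 0.75 without the endothelial cell with most selection UMIs, while PRND had 0.45.

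Of 10 genes of tip cells and sprouting, 1 (ADM) was higher at D14 than at D8 and 0 were lower, with a median log2 ratio of -0.12. Between D14 and D21, 2 of 10 were higher (ESM1 and LXN) and 1 (PGF) was lower, with a median of 0.06. With a limit of 3 selection UMIs the ratio of ADM was 0.94. ESM1, the proteoglycan endocan secreted by tip cells and by vessels under VEGF, was at 50.8 CPM (95% interval 36.5 to 68.9), 53.5 CPM (37.6 to 73.7) and 462 CPM (413 to 515) on D8, D14 and D21. It had a UMI in 11 of 46, 6 of 51 and 24 of 43 cells, in 7, 3 and 17 after thinning, and in 0.591%, 0.289% and 0.265% of thinned CM-high cells. D21 was high, and 1 cell held 27 of the 37 UMIs at D14. The log2 ratio of D21 over D14 was 2.89, and it lay between 2.27 and 3.22 under the alternatives. APLN, the apelin ligand, was at 52, 31.8 and 55.6 CPM, and passed 2-fold in neither comparison.

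Of 9 VEGF and angiopoietin genes, 0 passed 2-fold between D8 and D14 in either direction, with a median log2 ratio of -0.21. Between D14 and D21, 1 of 9 (KDR) was higher and 3 were lower (VEGFA, PGF and TEK), with a median of -0.81. VEGFA was at 78.1, 59.2 and 9.98 CPM and PGF, a ligand of FLT1, at 32.2, 47.7 and 1.43 CPM. Both ligands had their lowest level in the endothelial cells at D21.

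EDN1, the precursor of the peptide endothelin-1, was the endothelin gene of these cells. It was at 28.5 CPM (95% interval 18.1 to 42.8), 107 CPM (84 to 134) and 399 CPM (354 to 449) on D8, D14 and D21, and no intervals overlap. Its log2 ratio was 1.60 for D14 over D8 and 1.81 for D21 over D14, and the level in the other kept cells was 5.27, 7.35 and 20.3 CPM. A UMI was seen in 8 of 46, 16 of 51 and 25 of 43 endothelial cells, in 5, 11 and 17 after thinning, and in 0.591%, 0.144% and 0.265% of thinned CM-high cells. EDN1 was thus highest at D21, where 1 cell held 73 of its UMIs and another held 57. By then the medium with added endothelin-1 had been replaced and the flask changed, and the part of either was not tested. Of the 2 genes of the endothelin list that could be compared between days, 1, EDN1, passed 2-fold in each comparison, and the list medians were 0.91 and 0.83. ECE1, the enzyme that cuts the precursor, was at 88, 104 and 92.7 CPM, and the receptor EDNRA was at 1.24, 5.78 and 8.55 CPM against 16.5, 37 and 38.6 CPM in the other kept cells.

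Of 7 flow-responsive genes, 2 were higher at D14 than at D8 (KLF2 and ADAMTS1) and 1 (PTGS2) was lower, with a median log2 ratio of -0.14. Of 6 compared between D14 and D21, 3 were higher (THBD, PTGS2 and ADAMTS1) and 2 were lower (KLF2 and TXNIP), with a median of 0.68. With cells selected after thinning the D21 over D14 ratio of PTGS2 was -0.016, and that of ADAMTS1 was 0.76 with 3 of the 4 selection genes asked for. KLF2, a transcription factor that shear stress raises in endothelium, was at 62 CPM (95% interval 46 to 81.7), 179 CPM (149 to 214) and 35.6 CPM (23.1 to 52.6) on D8, D14 and D21. Thrombomodulin, THBD, which turns thrombin towards an anticoagulant role, was at 80.6 CPM (95% interval 62.2 to 103), 70.8 CPM (52.4 to 93.6) and 234 CPM (199 to 272) on D8, D14 and D21. KLF2 was thus highest at D14 and THBD at D21. PROCR, the endothelial protein C receptor that works with thrombomodulin, was at 423, 389 and 143 CPM, lowest at D21 where THBD was highest.

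Of 13 genes of BMP and TGF-beta signalling, 2 were higher at D14 than at D8 (ENG and BMP2) and 0 were lower (median log2 ratio -0.28). Of 15 compared between D14 and D21, 1 (TGFBR2) was higher and 4 were lower (TGFBR1, ID1, ID2 and BMP2), with a median of -0.02. With cells selected after thinning the ratios of BMP2 were -0.058 and -0.25, and as means of cell levels those of ID1 and ID2 were -0.72 and -0.77. ID1, a direct target of BMP signalling, was at 3294, 2741 and 1339 CPM in the endothelial cells and 1028, 1519.6 and 464 CPM in the other kept cells. It stood above the other kept cells on each day.

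The genes of leukocyte adhesion and inflammation were mixed. Of 8, 1 (B2M) was higher at D14 than at D8 and 2 (SELE and CCL2) were lower, with a median log2 ratio of -0.02, and of 9 compared between D14 and D21, 2 (CCL2 and CXCL12) were higher and 1 (SELE) was lower, with a median of -0.07. SELE, the E-selectin that captures leukocytes, was at 114 CPM (95% interval 91.9 to 139.8), 40.5 CPM (26.9 to 58.5) and 4.28 CPM (0.882 to 12.5) on D8, D14 and D21. A single cell held 46.7% of its UMIs at D8 and 46.4% at D14, and the D14 over D8 ratio of SELE was -0.42 without the doublet-like cells. The ratio of CXCL12 was 0.59 with 3 of the 4 selection genes asked for, and that of B2M was 0.92 after thinned selection. B2M, the light chain of MHC class I, was at 734, 1553 and 1683 CPM, while HLA-E was at 589, 374 and 259 CPM.

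Basement membrane genes were higher at D21. Of 10, 0 were higher and 1 (HSPG2) was lower at D14 than at D8, with a median log2 ratio of -0.07. Of 12 compared between D14 and D21, 5 were higher (COL4A1, COL4A2, LAMA4, NID1 and SPARC) and 0 were lower, with a median of 0.70. COL4A1, a chain of type IV collagen, was at 96.7 CPM (95% interval 76.4 to 121), 127 CPM (102 to 157) and 338 CPM (296 to 384) on D8, D14 and D21, and its partner COL4A2 at 121, 114 and 275 CPM. LAMA4, the laminin chain of vessel walls, was at 0, 8.67 and 82.7 CPM. The 2 collagen chains and the laminin chain thus had their highest level at D21. After thinned selection the ratio of HSPG2 was -0.91 and that of NID1 was 0.82.

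Junction genes other than CLDN5 did not pass 2-fold. Of 9 compared between D8 and D14, 1 (CLDN5) was lower and 0 were higher, with a median log2 ratio of -0.28, and of 8 compared between D14 and D21, CLDN5 was the 1 gene that was higher and 0 were lower, with a median of -0.14. Of 12 genes linked to the passage of endothelial cells to mesenchyme, 4 were higher at D14 than at D8 (TAGLN, COL3A1, FN1 and TGFBI) and 0 were lower, with a median of 0.53. Between D14 and D21, 1 of 13 (COL3A1) was higher and 3 (SNAI2, FN1 and S100A4) were lower, with a median of -0.46. After thinned selection the ratios of FN1 were 0.30 and -0.47, that of TGFBI was 0.33 and that of SNAI2 was -0.83, and COL3A1 was 0.94 for D21 over D14 with 3 of the 4 selection genes asked for. COL3A1 was at 0, 104 and 392 CPM against 19.3, 641 and 1024 CPM in the other kept cells. TAGLN, an actin-binding protein of smooth muscle, rested on single cells, with 53.3% of its D14 UMIs in 1 cell and a D14 over D8 log2 ratio of -0.55 without the doublet-like cells in place of 1.81.

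A further set of genes marked the D21 endothelial cells. Among genes at least 4-fold above the other kept cells, the 10 with the largest D21 over D14 ratios were NTS, LINC00305, HHIP, CLDN5, OIT3, TFPI2, CLEC1B, CRHBP, HOXB5 and ESM1. OIT3, a secreted protein known from liver sinusoidal endothelium, was at 21.1 CPM (95% interval 12.3 to 33.7), 20.2 CPM (11.1 to 33.9) and 331 CPM (289.5 to 376) on D8, D14 and D21, with a UMI in 10 of 46, 6 of 51 and 28 of 43 cells. The other kept cells had 0.131, 0.363 and 0.265 CPM. The D21 interval stands apart, and the D21 over D14 log2 ratio of 3.49 lay between 3.24 and 3.97 under the alternatives.

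TFPI2, an inhibitor of serine proteases, was at 233 CPM (95% interval 201 to 269), 221 CPM (187 to 259) and 2546 CPM (2429 to 2667) on D8, D14 and D21 in the endothelial cells and at 5, 11.6 and 192 CPM in the others. At D21 a single cell held 35.6% of its UMIs, and the log2 ratio over D14 was 3.47, or 2.71 as a mean of cell levels. TFPI2 also rose in the other kept cells, from 11.6 CPM at D14 to 192 CPM at D21. Its rise was thus not particular to the endothelial cells. CRHBP, which binds corticotropin-releasing hormone, was at 288 CPM (95% interval 252 to 327), 30.3 CPM (18.8 to 46.4) and 376 CPM (332 to 425) on D8, D14 and D21. Its level was thus low at D14 only, with a D14 over D8 ratio of -2.88 and a D21 over D14 ratio of 3.26. CLEC1B, a lectin receptor, had 1, 0 and 61 UMIs, those at D21 in 12 cells, which is 87.0 CPM. FCN3, a ficolin, was at 315, 107 and 71.3 CPM, highest at D8.

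OIT3, CRHBP, CLEC1B and FCN3 are known together from liver sinusoidal endothelium, so the other markers of that endothelium were read, with the genes added after values had been seen. STAB2, FCN2 and CLEC4G had 0 UMIs on each day, and LYVE1 and CLEC4M had 0, 0 and 1 UMI. STAB1 was at 2.48, 5.78 and 1.43 CPM, F8 at 2.48, 11.6 and 1.43 CPM and MRC1 at 0, 1.45 and 0 CPM. The D21 cells thus carried some and lacked other genes of that set.

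At D21 the genes of this set and the arterial and tip genes were unevenly spread over the 43 cells. OIT3 and CRHBP were seen together in 17 cells, OIT3 without CRHBP in 11, CRHBP without OIT3 in 3 and neither in 12. GJA4 and CRHBP were seen together in 5 cells, GJA4 without CRHBP in 19 and CRHBP without GJA4 in 15. At D8 the same pair was seen together in 21 of 46 cells, with GJA4 without CRHBP in 14 and CRHBP without GJA4 in 4. After thinning, 13 D8 cells held both, 11 GJA4 alone and 3 CRHBP alone, and 3 D21 cells held both, 16 GJA4 alone and 10 CRHBP alone.

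Summed over the 20 D21 cells with a CRHBP UMI and the 23 without, a split chosen after values were seen and given without a test, GJA4 was at 38.5 CPM against 769 CPM. ESM1 was at 46.8 CPM against 908 CPM, EDN1 at 113 CPM against 707 CPM and SOX17 at 102 CPM against 367 CPM. OIT3 was at 531 CPM against 115 CPM and CLEC1B at 157 CPM against 11.8 CPM. HEY2, of the arterial list, was at 52.3 CPM (95% interval 31.5 to 81.7) against 17.7 CPM (6.51 to 38.6), and the intervals overlap. CXCR4 and NOTCH4 of that list were at 0 CPM against 399 CPM and 24.8 CPM against 88.7 CPM. GJA4, ESM1, EDN1, SOX17, CXCR4 and NOTCH4 were thus higher in the cells without CRHBP, and OIT3 and CLEC1B in those with it. EMCN, at 443 CPM against 517 CPM, was closer. TFPI2 was at 2342 CPM against 2765 CPM, but 1 cell without CRHBP held 636 of the 935 UMIs on that side. A TFPI2 UMI was seen in all 20 cells with CRHBP and in 14 of the 23 without. The cells with a CRHBP UMI were deeper, with a median of 18547.5 UMIs against 11350. Without the cell with most selection UMIs, the 22 remaining cells without CRHBP had 476 CPM of GJA4, 751 CPM of ESM1 and 789 CPM of EDN1. CXCR4 was then at 116 CPM in them and NOTCH4 at 68 CPM, where the NOTCH4 intervals overlap. At D8, with 25 cells with and 21 without, GJA4 was at 293 CPM against 233 CPM and EDN1 at 0 CPM against 64.7 CPM.

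**Figure D3:**
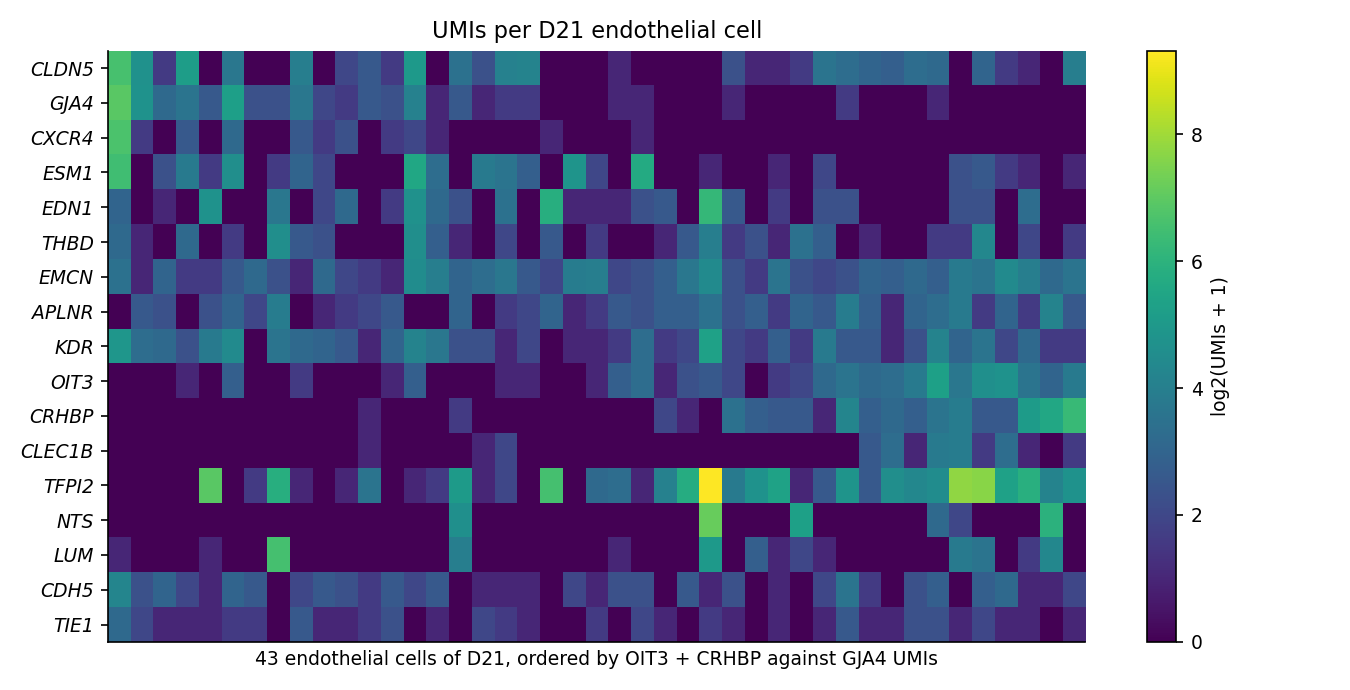
UMIs of 17 genes in each of the 43 endothelial cells of D21 (columns, ordered by OIT3 and CRHBP against GJA4). Colour is log2 of UMIs plus 1, without scaling for the depth of a cell. GJA4 sits mainly in the cells at the left and OIT3 and CRHBP in those at the right by the ordering itself, while CDH5 and TIE1 are spread over both sides except in 5 cells.

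Some other D21 genes came from few cells, and others were more widely spread. NTS, the neurotensin precursor, was at 38.4, 1.45 and 392 CPM, and its D21 UMIs came from 6 cells with 50.9% in 1 of them. LUM, a proteoglycan of stroma, was at 0, 1.45 and 287 CPM, and the 5 cells without CDH5 and TIE1 held 119 of its 201 UMIs at D21. The same 5 cells held 168 of 252 UMIs of CCL2, and their identity list summed to a median of 2607 CPM against 8457 CPM in the other 38. For LUM, 1 of these 5 cells held 95 of the 119 UMIs, and 10 of the other 38 cells held LUM UMIs too. Most UMIs of CCL2 at D21 came from the 5 cells without CDH5 and TIE1, where 4 cells held them. HOXB5, a homeobox gene, was seen in 3 of 46, 2 of 51 and 28 of 43 cells at 6.2, 2.89 and 91.2 CPM, and LINC00305, a long non-coding RNA, in 1 of 46, 0 of 51 and 20 of 43 cells.

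Among the genes at least 4-fold above the other kept cells, the largest D14 over D8 ratios were those of NPY, PRSS1, TM4SF1, TFF1, SOX18, EDN1, PRND, KLF2, EMCN and SGK1. TM4SF1, a membrane protein of endothelial projections, was at 121 CPM (95% interval 98.6 to 148), 1101 CPM (1024 to 1182) and 769.8 CPM (706 to 838) on D8, D14 and D21, with a D14 over D8 log2 ratio of 3.08 that lay between 2.81 and 3.28 under the alternatives. NPY, a neuropeptide, was at 9.91, 447 and 0 CPM, and 302 of its 309 UMIs at D14 came from the 7 cells without CDH5 and TIE1. Those 7 cells also held 81 of 81 UMIs of PRSS1, a trypsinogen, and 46 of 46 of TFF1, a trefoil peptide, both products of epithelia of the gut and its glands. Within the 7, NPY was seen in 3 cells, PRSS1 in 2 and TFF1 in 1, so most of the 7 lacked them. TM4SF1 was thus spread over the endothelial cells, and these 3 genes were not. With 3 of the 4 selection genes asked for, the D14 over D8 ratios were 0.11 for NPY, -0.38 for PRSS1 and 0 for TFF1.

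The genes highest at D8 were of another kind. MT2A, a metallothionein, had the lowest D14 over D8 ratio of all genes compared and was at 374, 8.67 and 5.7 CPM. A single cell held 61.9% of its UMIs at D8. Among genes at least 4-fold above the other kept cells the 10 were CXCL2, CRHBP, CXCL3, GPR116, NCOA3, AC011526.1, S100Z, SPINK5, LPL and PTGS2. CXCL2, a chemokine of neutrophils, was at 125, 1.45 and 28.5 CPM. GPR116, an adhesion receptor, was at 84.3, 7.23 and 22.8 CPM. SOST, the Wnt antagonist sclerostin, was among the 10 genes furthest above the other kept cells at D8 and at D14. It was at 322 CPM (95% interval 284 to 364), 221 CPM (187 to 259) and 7.13 CPM (2.31 to 16.6) on D8, D14 and D21, with a D21 over D14 log2 ratio of -3.75. F2RL2, a thrombin receptor, was at 252, 159 and 31.4 CPM. Both SOST and F2RL2 were lowest at D21.

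**Figure D4:**
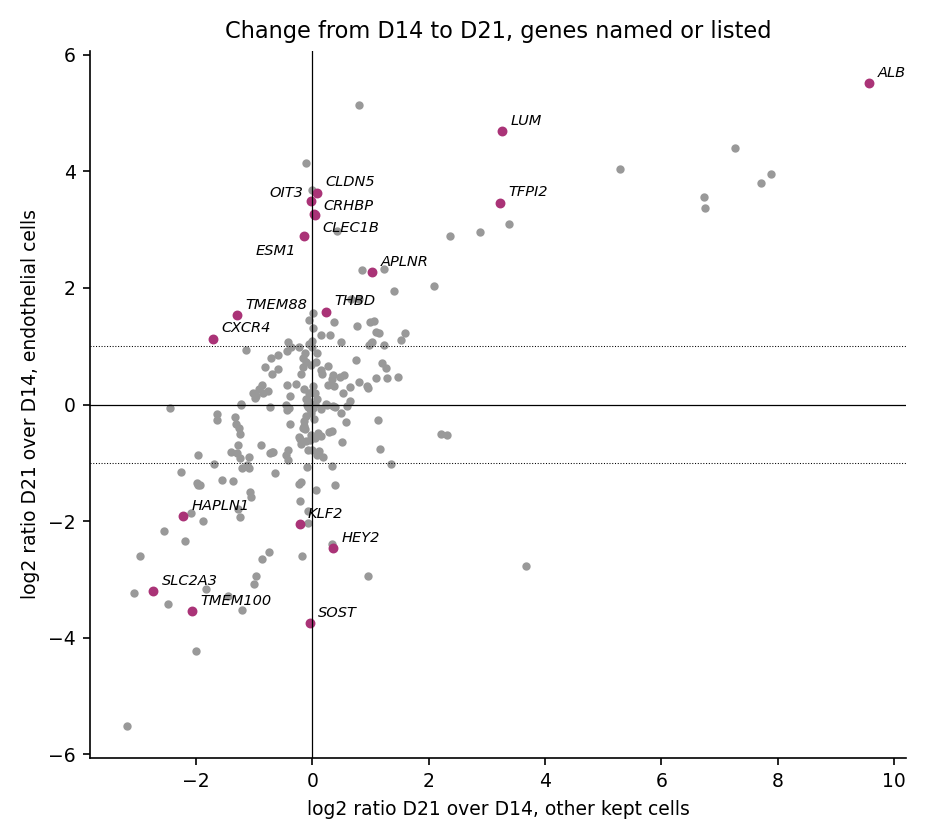
Log2 ratio of D21 over D14 in the other kept cells (horizontal axis) and in endothelial cells (vertical axis) for 230 genes named or listed, with dotted lines at 2-fold. CLDN5, OIT3, CRHBP and CLEC1B lie high with a ratio near 0 in the other cells, while TFPI2 lies high on both axes. SLC2A3 and HAPLN1 lie low on both axes, and TMEM88 and CXCR4 lie on opposite sides.

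Glycolysis genes were lower at D21. Of 17, 0 passed 2-fold in either direction between D8 and D14, with a median log2 ratio of 0.01, while of 18 compared between D14 and D21, 0 were higher and 9 were lower, with a median of -1.04. SLC2A3, a glucose transporter, was at 798 CPM (95% interval 738 to 862), 712 CPM (651 to 778) and 68.4 CPM (50.4 to 90.7) on D8, D14 and D21. Its D21 over D14 ratio was -3.20 in the endothelial cells and -2.73 in the other kept cells, at 432, 571 and 77.6 CPM on the 3 days. PGK1 was at 1006, 1231 and 466 CPM and LDHA at 1782, 1929 and 748 CPM. The endothelial cells and the rest of the CCO thus had the same direction for SLC2A3.

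Of 10 dissociation stress genes, 1 (FOS) was higher at D14 than at D8 and 2 (HSPA1A and HSPA1B) were lower, with a median log2 ratio of -0.05. Of 8 compared between D14 and D21, 0 were higher and 5 were lower (FOS, FOSB, JUNB, EGR1 and ATF3), with a median of -1.42. FOS was at 141, 337 and 20 CPM. After thinned selection its D14 over D8 ratio was 0.91 and the D21 over D14 ratio of EGR1 was -0.92, and without the doublet-like cells that of ATF3 was -0.85. Mitochondrial genes gave medians of 1.77%, 1.21% and 4.35% of UMIs in the endothelial cells and 2.10%, 3.19% and 5.52% in the others. The stress genes and the mitochondrial share move with age beside each result above, and their part in it was not tested.

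Of 6 cycling genes compared between D8 and D14, 0 were higher and 1 (CCNB2) was lower, with a median log2 ratio of -0.41, and of 9 compared between D14 and D21, 0 passed 2-fold in either direction, with a median of 0.52, and the ratio of CCNB2 was -0.99 after thinned selection. Against the other kept cells, 6 of 12 cycling genes were 2-fold or more lower in endothelial cells at D8 and 7 of 11 at D14, where 6.5% and 7.83% of all genes were lower. At D21, where 9.67% of all genes were lower, 0 of 9 were. A UMI of MKI67, TOP2A or CDK1 was seen in 8.7%, 9.8% and 23.3% of thinned endothelial cells and 13%, 21.6% and 34.9% at full depth, and in 11%, 8.66% and 6.35% of thinned CM-high cells. These counts are a share of cells with an mRNA and not a cell cycle phase.

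CM genes were present in the endothelial cells and were higher with age. All 10 CM genes compared were higher at D14 than at D8 (median log2 ratio 3.59), and 7 of 12 were higher at D21 than at D14 (median 1.14) with 0 lower. After thinned selection the D14 over D8 ratio of TTN was -0.11. Summed over the 13 CM genes, the median endothelial cell had 121 CPM (range 0 to 1344), 1000.2 CPM (225 to 48975) and 3548 CPM (2167 to 47182) on D8, D14 and D21. Epithelial cells, chosen by EPCAM, CDH1, CLDN4 and CLDN6, had medians of 297, 1100.1 and 3167 CPM at depths of 21080, 19330.5 and 22380 UMIs, so the endothelial medians at D14 and D21 lay near those of a cell type that should lack these genes. The CM-high cells had 12221, 47240 and 111151 CPM. The part of free CM RNA in the droplets was not tested.

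TNNT2, cardiac troponin T, was at 22.3 CPM (95% interval 13.2 to 35.3), 374 CPM (330.1 to 423) and 526 CPM (474 to 583) on D8, D14 and D21 in the endothelial cells, and 393, 972 and 2708 CPM in the others. A single cell held 70.7% of the D14 UMIs, and without the doublet-like cells the D14 over D8 log2 ratio was 1.97 in place of 3.57. The cardiac transcription factors had 2 of 7 genes higher (NKX2-5 and HAND2) and 0 lower at D14 over D8, with a median of 0.25, and 0 higher and 1 of 6 lower (GATA5) at D21 over D14, with a median of -0.58. After thinned selection NKX2-5 had a D14 over D8 ratio of 0.42, and GATA5 had a D21 over D14 ratio of -0.99 with a mitochondrial limit of 5%. Against the other kept cells, NKX2-5, HAND1, HAND2 and GATA6 were 2-fold or more lower and MEF2C higher on each of the 3 days.

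**Figure D5:**
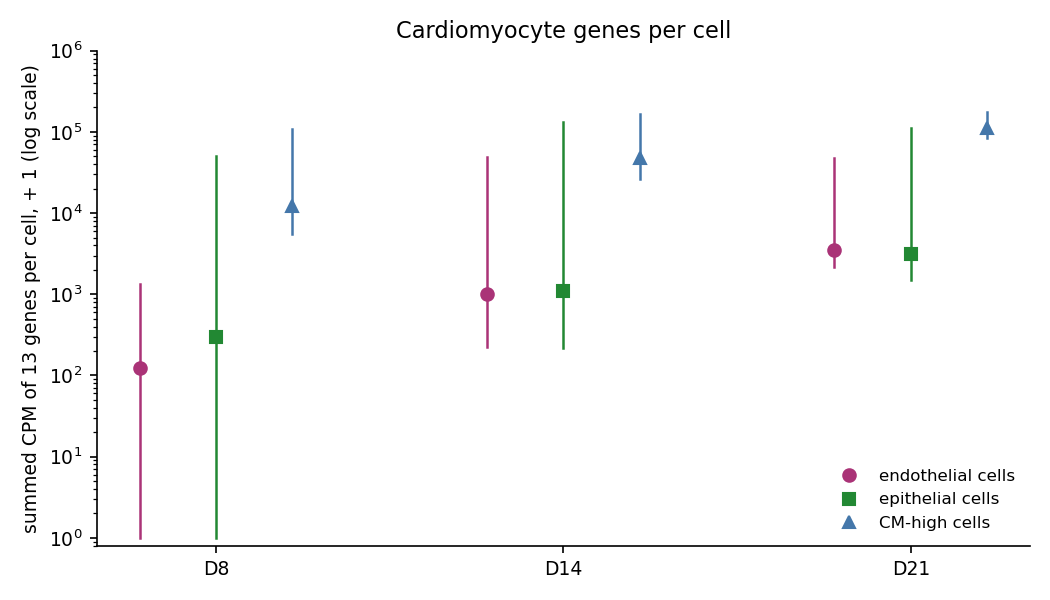
Summed level of 13 CM genes per cell (CPM plus 1, log axis) at each day, as the median (marker) and range (line) over endothelial cells, epithelial cells and CM-high cells. Endothelial and epithelial medians lie close together at D14 and D21 and both lie far below the CM-high cells.

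Genes of other cell types were fewer. Of the fibroblast list, 1 of 4 (COL3A1) was higher at D14 than at D8, with a median log2 ratio of 0.31, and 2 of 5 (COL3A1 and LUM) at D21 than at D14, with a median of 0.71, and 0 were lower in both. Of the list for epithelium and hepatic endoderm, 1 of 6 (TTR) was higher at D14 than at D8 and 0 were lower (median 0.36), and at D21 over D14, 5 of 11 were higher (AFP, APOA1, APOA2, SERPINA1 and ALB) and 4 were lower (EPCAM, CLDN6, KRT8 and KRT19), with a median of -0.08. After thinned selection the ratio of TTR was -0.081, and EPCAM and KRT8 had -0.43 each. ALB, serum albumin, was at 0, 0 and 449 CPM in the endothelial cells against 0.305, 0.969 and 8345 CPM in the others. All 10 genes of that list compared at D21 were 2-fold or more lower in endothelial than in other kept cells. Of 2 mural genes, 0 were higher and 1 (MCAM, which endothelium also expresses) was lower at D14 than at D8, with a median of -0.86, and 0 passed 2-fold at D21 over D14, with a median of 0.45.

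A neighbouring group at D21, the 129 kept cells with 2 or more KDR UMIs, no CDH5 and fewer than 4 selection UMIs, was set beside the endothelial cells of that day. Its median identity list sum was 1401 CPM, against 8009 CPM in the endothelial cells. A UMI of GJA4, GJA5 or DLL4 was seen in 1.55% of these cells after thinning and 5.43% at full depth, against 51.2% and 62.8% of the endothelial cells, at median depths of 16124 and 15261 UMIs. A UMI of ESM1 or APLN was seen in 0.775% at full depth, against 62.8%. A UMI of NFATC1 or NPR3 was seen in 17.8% of the KDR cells after thinning and 48.1% at full depth, above the 9.3% and 30.2% of the endothelial cells, and a UMI of NR2F2, EPHB4 or APLNR in 33.3% after thinning against 83.7%. Arterial, tip and venous shares were thus lower in the KDR cells and the endocardial share was higher, with exact 95% intervals of the thinned endocardial shares that overlap. Among all other kept cells at D21, 64 of 1903 held a UMI of GJA4, GJA5 or DLL4 at full depth, against 27 of 43 endothelial cells.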

How the data were processed

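Single-cell libraries (Chromium 3′ chemistry) of dissociated CCOs were analysed from 1 merged table. The authors deposited UMI counts of 32738 genes in 17327 cell barcodes, without normalization and before their filter on cells, and no value in the table was other than a whole number. The submitters' processing notes name hg19, Cell Ranger and Seurat 3.2.1 without stating their roles. The day of a barcode was read from the ending of its column name, which matches the labels. The filter on cells used the limits of the study's methods.

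Counts were summed over the endothelial cells of a day and expressed as CPM with exact Poisson intervals. Shares of cells have exact (Clopper-Pearson) intervals and were given after each cell was thinned to 4000 UMIs with a fixed seed, which left out no cell, and without thinning. Where 0 counts were seen, 3 counts are the limit. With 1 library per day no test and no p-value was computed. The ratios and intervals were tested on simulated data drawn with counting error only, which is the error that the intervals assume. Spread between cells was not part of that test. Named genes were the 4 selection genes, the members of 24 gene lists (309 of 312 listed genes are in the table), the 10 genes with the largest ratio each way between successive days, over all genes and among those at least 4-fold above the other kept cells, and the 10 furthest above the other kept cells on each day. These rules left out mitochondrial and ribosomal protein genes. The endothelial cells and the lists were chosen with earlier results of these data known. Genes of liver sinusoidal endothelium, the split by CRHBP and the promoter motif were added after values had been seen. PECAM1 was not analysed here.

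Alternatives were 3 or 6 selection UMIs, selection after thinning, mitochondrial limits of 5% and 20%, doublet-like cells left out, 1 CPM added, no floor, TMM and median-of-ratios factors, and means of cell CPM. Chosen after seeing the data were a need for 3 of the 4 selection genes, leaving out the cell with most selection UMIs of each day, and the use of all barcodes. Python 3.11.15 with numpy 2.4.6, pandas 2.3.3, scipy 1.17.1 and matplotlib 3.10.9 was used, and TMM factors came from edgeR 4.0.16 in R 4.3.3. Promoter sequences are from RefSeq on GRCh38.p14, and no coordinate was carried between builds.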

Additional observations from a re-analysis of the deposited data

Results flagged for a closer look

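At D21, 14 barcodes outside the limits on cells had 4 or more UMIs of CDH5, TIE1, ECSCR and ESAM. Of these, 9 had 10% or more mitochondrial UMIs and 11 had 2000 or fewer genes, and their median was 4130 UMIs with 14.9% mitochondrial. At D8 there were 2 such barcodes and at D14 there were 0.

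Several genes had opposite log2 ratios between days in the endothelial cells and in the other kept cells, each past 2-fold in its own direction, and none of these differences was tested. CCL2, a chemokine of monocytes, had a D14 over D8 ratio of -1.38 in endothelial cells and 1.29 in the others. NPY had D14 over D8 ratios of 4.52 and -1.04. PRSS1 had D14 over D8 ratios of 3.09 and -2.50, and D21 over D14 ratios of -2.78 and 3.68, and its D14 UMIs in endothelial cells came almost all from 1 cell (97.5%). CXCR4 had D21 over D14 ratios of 1.13 and -1.70, and its endothelial ratio turned without 1 cell. SNAI2, a transcription factor of mesenchyme, had D21 over D14 ratios of -1.01 and 1.35. TMEM88 had D21 over D14 ratios of 1.53 and -1.29, from 26 CPM to 94.1 CPM in endothelial cells.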

How the results depend on the processing

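Each day is 1 library of at most 51 endothelial cells, so day-to-day values have counting error and cell-to-cell spread but no replicate error, and genes under 30 CPM were not compared. No paired analysis was possible because each day has 1 library and no result comes from a test. The endothelial share at D21 was 3.24% at a mitochondrial limit of 5%, 1.28% at 20% and 0.623% of all barcodes. With 1 CPM added, 250 genes were higher and 241 lower at D14 than at D8, and without the floor 278 were higher there and 636 were lower at D21 than at D14, since more low genes are then counted. The other counts stayed within 1.5 times. Of 169 calls of named genes, 0 to 35 per alternative no longer passed 2-fold, with 35 when cells were selected after thinning. The direction turned for few, and the cause was not tested. D14 over D8 log2 ratios after thinned selection were -0.058 for BMP2, -0.11 for TTN and -0.081 for TTR. For the 6-UMI limit, thinned selection, doublet-like cells left out and 3 of 4 selection genes in that order, PRSS1 gave -0.61, -0.65, -0.48 and -0.38, and TAGLN -0.59, -1.14, -0.55 and -0.46. FABP7 gave 0.25, 0.23 and 0.25 without the thinned setting. D21 over D14 ratios in the same order were 1.39, 1.38, 1.44 and 1.59 for ITGA2, which was 0.10 at the 5% mitochondrial limit, and 0.89, 0.81, 0.89 and 0.76 for PRSS1. CST1 gave 0.18 after thinned selection, PTGS2 -0.016 there and -0.30 with 3 of 4 selection genes, and CXCR4 -0.64 without the cell with most selection UMIs.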

Other observations

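A few genes named by the rules are not described above. S100A4, a calcium-binding protein, was at 128, 121 and 22.8 CPM in the endothelial cells and 73.5, 122 and 25.8 CPM in the others, lowest at D21 in both. ANGPTL4, a lipase inhibitor induced by hypoxia, was at 79.3, 116 and 9.98 CPM, and LOX, which cross-links collagen, at 49.6, 59.2 and 1.43 CPM. Both had their lowest level in the endothelial cells at D21, where the glycolysis list was also low. SGK1, a serum-induced kinase, was at 32.2, 79.5 and 171 CPM, highest at D21. SPINK5, a protease inhibitor, was at 68.2, 10.1 and 1.43 CPM and NCOA3, a nuclear receptor coactivator, at 134, 23.1 and 11.4 CPM, both highest at D8. RGS5, a regulator of G protein signalling known from pericytes and also seen in endothelium, was at 479.6, 332 and 315 CPM, and 172, 323 and 313 CPM in the other kept cells, while CSPG4, KCNJ8 and ABCC9, further pericyte genes, were at 2.48, 1.45 and 0 CPM, 1.24, 4.34 and 4.28 CPM and 0, 0 and 0 CPM.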
